A study of Mus musculus with 6 samples.

Results

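The replication-dependent histone genes of LSK cells were examined in libraries made from poly(A) RNA. Members were the loci of the deposited table whose symbol begins with Hist1h, Hist2h, Hist3h or Hist4h, and where a symbol was listed more than once the longer locus was taken. This gave 74 of the 53445 loci in the table, 69 under a single name and 5 under a joint name such as Hist1h2ap/Hist1h2ao. They fell into 7 loci of linker histone H1, 21 of H2A, 20 of H2B, 13 of H3 and 13 of H4. Joint names were classed by their first name. By cluster, 58 were named Hist1, 12 Hist2, 3 Hist3 and 1 Hist4.

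The libraries came from Lin-Sca+Kit+ (LSK) bone marrow cells, the fraction that holds the hematopoietic stem cells and multipotent progenitors, of C57BL/6 female mice about 12 weeks old. There were 3 OgaVav-Cre and 3 wildtype libraries. OgaVav-Cre mice were bred from Oga fl/fl and Vav-iCre mice, so that Oga, which encodes the enzyme that removes O-GlcNAc from proteins, was deleted throughout the hematopoietic lineage and not in stem cells alone. Both groups shared the strain background, sex, age, sort and library kit. In bulk libraries such as these, fewer cells in S phase and less histone mRNA per cell cannot be told apart.

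Replication-dependent histone genes supply the histones that package new DNA, and they are transcribed mainly in S phase. Their mRNAs are the best known metazoan mRNAs without a poly(A) tail. In its place they end in a short stem-loop that is bound by SLBP, the stem-loop binding protein, and the pre-mRNA is cut just downstream with the help of the U7 small nuclear ribonucleoprotein. A second signal further downstream can yield polyadenylated transcripts from some of these genes. Selection on poly(A) is therefore expected to leave only part of the histone mRNA of a cell, and the values below are of the part that was left.

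Libraries held between 19318056 and 27064389 counted reads, so that 3 reads, taken as the floor, corresponded to 0.111 to 0.155 CPM, the usual unit of reads scaled to a common library size. As a check of the genotype, Mgea5, the former symbol of Oga, was at 4.31 ± 0.299 (SD, n = 3) CPM in OgaVav-Cre and at 139 ± 20.7 (SD, n = 3) in wildtype. All 10 LSK markers on the list used, among them Kit, Ly6a and Cd34, were above 1 CPM in every library. Libraries of 1 genotype differed in markers of other cells. Summed over 10 plasma cell markers the level was 9380 to 88700 CPM in OgaVav-Cre and 9670 to 41300 in wildtype, and over 11 B cell and precursor markers it was 626 to 1810 and 603 to 1770. Summed over 9 erythroid markers it was 729 to 2740 and 846 to 1090, and over 10 granulocyte and monocyte markers it was 719 to 2320 and 1260 to 1540. None of these markers was at 0 in every library, and only Ly6g was at 0 in any. Among 8 T and NK cell markers 5 were above 1 CPM in every library, with summed levels of 62.5 to 184 and 60.3 to 120. None of the markers of these 6 lists was called between genotypes by edgeR or DESeq2. An unadjusted edgeR p below 0.05 was reached by 3 T and NK cell markers and no other, beside 10.6% of all loci tested.

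The 3′ stem-loop was looked for in the mm9 sequence of the 62 members with a single name and a single exon, from the locus start to 100 bases past its end, since it is the feature that sets these mRNAs apart. The sequence was found in 59 of them. It was not found in Hist2h2be, Hist1h2an and the chromosome 3 locus listed as Hist1h2bg. Of the 68 single names that GENCODE vM1 also has, 5 stand at another place there, namely Hist1h2ao, Hist1h2bg, Hist1h2br, Hist2h2aa1 and Hist2h3c1. The 16 bases of stem and loop were identical in 35 loci from H1, H2A, H2B and H3, and the H4 loci had forms of their own. These are counts of listed loci. Hist1h2ao and Hist1h2ap share the same stem-loop, as do Hist2h2aa1 and Hist2h2aa2, and Hist2h3c1 and Hist2h3c2-ps, and it is counted under both names. The members with the highest level of each class are shown with 5 bases on either side, and capitals mark the stem and loop.
Hist1h2ai (H2A, chr13:21808703-21808728, plus strand): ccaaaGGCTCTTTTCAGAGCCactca
Hist1h1c (H1, chr13:23831376-23831401, plus strand): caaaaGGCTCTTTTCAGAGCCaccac
Hist1h2bl (H2B, chr13:21807582-21807607, minus strand): tcaaaGGCTCTTTTAAGAGCCaccca
Hist1h3h (H3, chr13:21809959-21809984, plus strand): tcaaaGGCTCTTTTCAGAGCCaccca
Hist1h4i (H4, chr13:22132830-22132855, minus strand): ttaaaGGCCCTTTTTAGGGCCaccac
The form of Hist1h2bl was shared by 9 loci, and that of Hist1h4i by Hist2h4 alone. The most frequent form in H4 was found in 8 loci and is shown by Hist1h4k, another of the 15 highest members.
Hist1h4k (H4, chr13:21842014-21842039, minus strand): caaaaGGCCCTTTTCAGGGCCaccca

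Most members were seen after poly(A) selection, but few at any depth. At least 3 reads in each of the 6 libraries were counted for 48 of the 74 members, at least 10 reads in each for 37, and at least 3 reads in 3 or more libraries for 70. No read was counted for Hist1h2ba and Hist3h2bb-ps in any library, which allows a level of up to 0.155 CPM in the shallowest library, counting error only. Hist1h2ba is known as a testis form of H2B. The testis linker histone gene Hist1h1t had 1 read in all 6 libraries together. Hist1h2aa is an H2A gene 305 bases from Hist1h2ba on the other strand. It was seen with few reads, 5, 1 and 4 in OgaVav-Cre against 2, 1 and 2 in wildtype. Summed over the 64 loci left when loci that overlap on 1 strand were counted once, histone reads made up 0.0265 to 0.0341% of the counted reads in OgaVav-Cre and 0.0162 to 0.0287% in wildtype. For comparison, small RNAs made without a poly(A) tail, such as Rn7sk and Terc, were sparser. The 16 of these in the table summed to 3.32 to 5.59 CPM in OgaVav-Cre and 4.46 to 8.04 in wildtype, and none of them was above 1 CPM in every library. The small RNAs and the histone loci differ in number and length, and neither was scaled for here. The comparison therefore does not measure loss through poly(A) selection.

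Between members, levels were compared as CPM per kilobase of the listed locus, with library sizes scaled by edgeR's TMM method, and averaged over the 6 libraries. A single gene stood at the head. Hist1h2ai, on the plus strand at chr13:21808281-21809321, encodes a core H2A and gave 2900, 3686 and 3543 reads in the OgaVav-Cre libraries against 2859, 1140 and 1640 in those of wildtype, here and throughout in the order of replicates 1, 2 and 3. Its mean level was 107, against 35.9 for Hist1h2ap, the next member. With overlapping loci counted once it held 42.6% of the reads of the members and 65.7% of those of H2A, and over all 74 listed loci 36.4%. The next levels were also from H2A, with 28.3 for Hist1h2ao and 16.9 for Hist1h2ak. Below these came Hist1h1c, a linker histone gene, at 10.8, Hist1h2bl (H2B) at 5.72 to 14.6 in the 6 libraries, Hist1h2bc (H2B) at 8.34, Hist1h4i (H4) at 8.16 and Hist3h2a (H2A) at 8.0. The highest H3 member, Hist1h3h, was at 4.95. From Hist1h1c to Hist3h2a the levels overlapped between libraries, so these neighbours in the order did not differ beyond their spread. The same 15 members were the highest when the authors' RPKM was used in place of these levels.

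**Figure D1:**
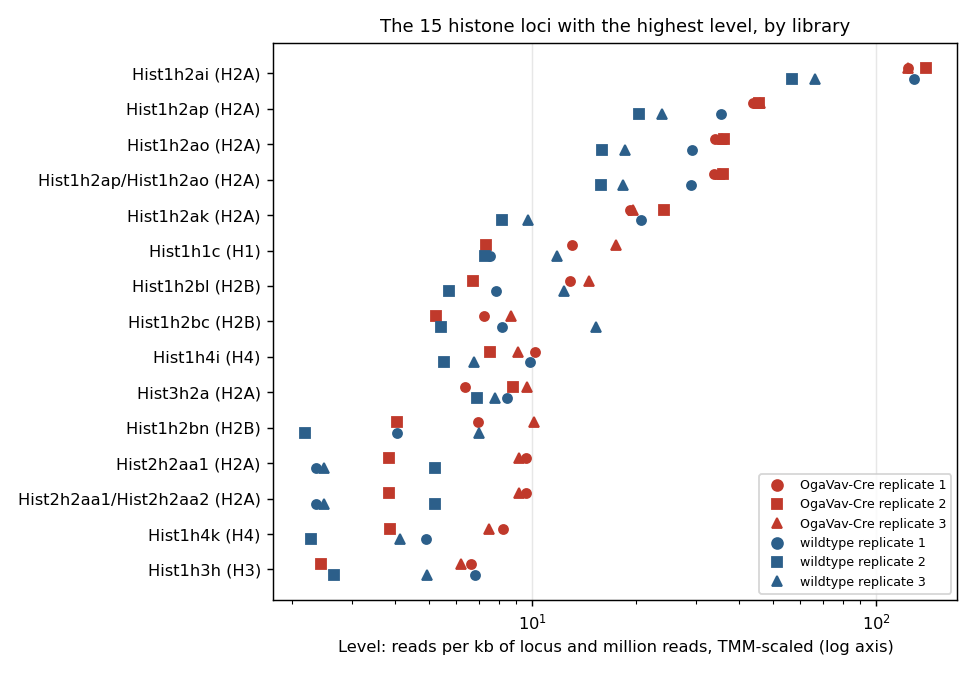
Level of the 15 histone loci with the highest mean, in CPM per kilobase on a log axis, with 1 point per library (red, OgaVav-Cre; blue, wildtype; the marker shape gives the replicate). Hist1h2ai lies to the right of every other locus, and wildtype replicate 1 lies near the OgaVav-Cre libraries for Hist1h2ai, Hist1h2ap, Hist1h2ao and Hist1h2ak.

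A further H2A locus at a like level was listed under an Ensembl gene number and so lay outside the rule for members and outside the shares above. It lies on the minus strand at chr13:21812305-21814000, and the gene name table calls it Hist1h2aj. Reads there numbered 2878, 3450 and 3709 for OgaVav-Cre against 2879, 1226 and 1563 for wildtype. Each of these counts was close to that of Hist1h2ai in the same library. Of the 50-base windows of Hist1h2ai, 29.6% were also found in this locus. Whether the same reads were counted at both was not tested.

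Copies of nearly the same sequence limit what the level of a single member means. A 50-base read names its gene only where it has 1 match in the genome, and over the 65 single-exon members the median share of such windows was 56.2%. The share was lowest in H2A, with a median of 32.9%, and highest in H1, with 98.4%. It was 39.6% in H3, 56.2% in H2B and 59.6% in H4. In 7 loci no window was unique, among them Hist1h2ap, Hist1h2ao and Hist2h2aa1, and all 3 of these held reads, so that reads with more than 1 match entered the counts. Hist1h2ag contains 91% of the windows of Hist1h2ap but had 65 reads in all against 2013. The level of Hist1h2ap and the other copies is therefore uncertain. Hist1h2ai was unique in 68.8% of its windows, Hist1h1c in 91.5%, Hist3h2a in 98.0%, Hist2h2be in 99.2% and Hist1h1a and Hist1h1b in 100%. Of the other members highest in their class, Hist1h2bl was unique in 17.2%, Hist1h3h in 22.3% and Hist1h4i in 70.7%. The levels of Hist1h2bl and Hist1h3h are therefore uncertain as well.

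**Figure D2:**
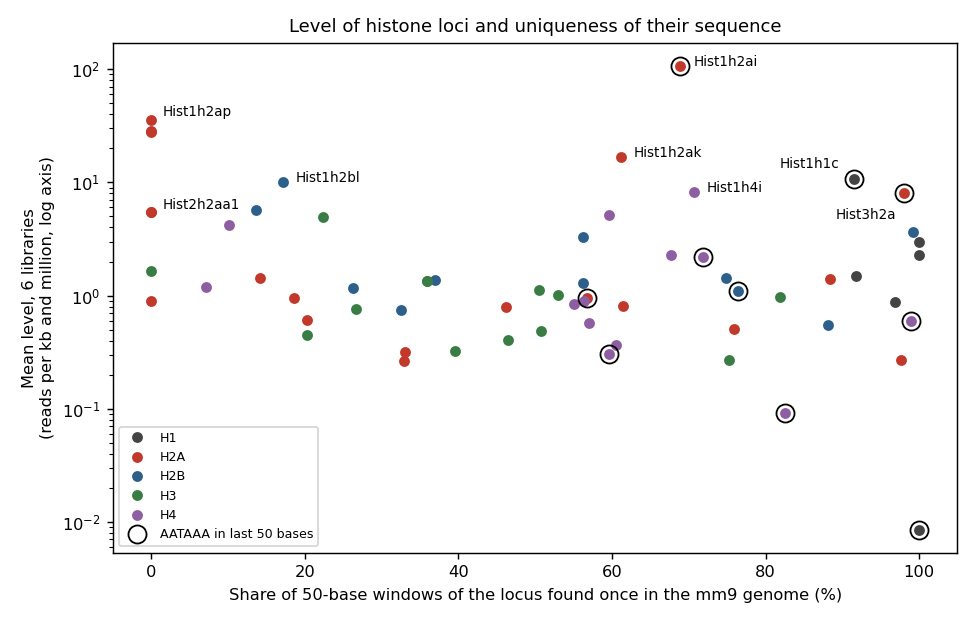
Mean level over 6 libraries (CPM per kilobase, log axis) against the share of 50-base windows of the locus that occur once in mm9, 1 point per single-exon locus with reads, coloured by histone class. Black rings mark loci with AATAAA in their last 50 bases. High levels occur both at 0% (Hist1h2ap) and above 90% (Hist1h1c, Hist3h2a), and the ringed loci spread from the highest level to the lowest.

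How far the annotated locus runs past the stem-loop, and whether it ends near the poly(A) signal AATAAA, was compared with the level as a description. In 21 loci the listed end lay 100 or more bases past the stem-loop, with a median level of 1.09, and in 38 it lay closer or before the stem-loop, with a median of 0.984. AATAAA stood in the last 50 bases of 10 loci, with a median level of 1.02 against 1.06 in the other 52. The medians were thus alike, but the 10 loci held 21244 of 36250 reads, mostly through Hist1h2ai. Levels are divided by the listed length, which grows with the stretch past the stem-loop. The medians therefore cannot show whether loci that run further, or end near AATAAA, kept more RNA. Hist1h2ai runs 598 bases past its stem-loop, with AATAAA starting 579 bases past it. Hist1h1c runs 840 bases past with AATAAA at 815, and Hist3h2a runs 1643 bases past with AATAAA at 1610. Hist4h4 and Hist1h1t also end near this signal and had levels of 0.0921 and 0.00856. Hist1h2ap, Hist1h2ao, Hist1h2ak and Hist1h2bl are listed to a point before the end of the stem-loop and still stood among the 7 highest members. Where in a locus its reads lay is not given by its own count. On the opposite strand AK015962 covers the first 604 bases of Hist3h2a. It gave 238, 410 and 458 reads in OgaVav-Cre against 299, 219 and 310 in wildtype. Hist3h2a gave 309, 476 and 569 against 388, 286 and 396. How the counting treated strand is not given, and whether these were the same reads was not tested.

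Between genotypes no member passed the cutoffs used, which asked for an adjusted p under 0.05 together with a log2 fold change beyond 1 in either direction. Of the 74 members 55 had enough reads to be tested by edgeR's quasi-likelihood test, and 0 were called, beside 0.0318% of all 22032 loci tested (0.00454% higher and 0.0272% lower in OgaVav-Cre). DESeq2's Wald test also called 0 members, beside 0.473% of all loci, and limma-voom 0, beside 0.0227%. The lowest adjusted p of a member was 0.412. An unadjusted p below 0.05 was reached by 6 members in edgeR, all higher in OgaVav-Cre and 10.9% of those tested, beside 4.38% of all loci in that direction, and by 0 members that were lower, beside 6.27%. In either direction edgeR gave 10.9% of members, beside 10.6% of all loci. DESeq2 gave 10 such members of 72, or 13.9%, in either direction, beside 6.72% of all loci, and limma-voom 10 of 55, or 18.2%, beside 10.9%. The 6 members stand for 3 places in the genome, since Hist1h2ap, Hist1h2ao and their joint name share reads, as do Hist2h2aa1 and its joint name. With overlapping loci counted once edgeR gave 3 of 46. The DESeq2 and limma-voom counts include overlapping loci under each listed name. The remaining place is the chromosome 3 locus listed as Hist1h2bg, whose name is doubtful.

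The direction was nonetheless uneven. The log2 fold change of OgaVav-Cre over wildtype was above 0 in 50 of the 55 members, beside 50.5% of all loci tested, and its median was 0.66 beside 0.004. With overlapping loci counted once it was above 0 in 41 of 46, with a median of 0.64. Members share library, sequence and partly reads, so they are not independent. The filter on low counts also bears on these counts. Hist1h2bb, with 40, 13 and 14 reads in OgaVav-Cre against 7, 0 and 11 in wildtype, passed it only with its OgaVav-Cre libraries. Members of this kind lean to values above 0. By class the log2 fold change was above 0 in 6 of 6 members of H1 and 14 of 15 of H2A. It was above 0 in 13 of 17 of H2B, 9 of 9 of H3 and 8 of 8 of H4. The class medians were 0.72, 0.73, 0.32, 0.92 and 0.51 in that order. In H1, Hist1h1e counts under its own name and under the joint name Hist1h1e/Hist1h2be. The 3 libraries of OgaVav-Cre were all above those of wildtype in 5 of the 55 members, beside 7.5% of all loci, and all below in 0, beside 9.97%. With overlapping loci counted once it was 3 of 46.

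**Figure D3:**
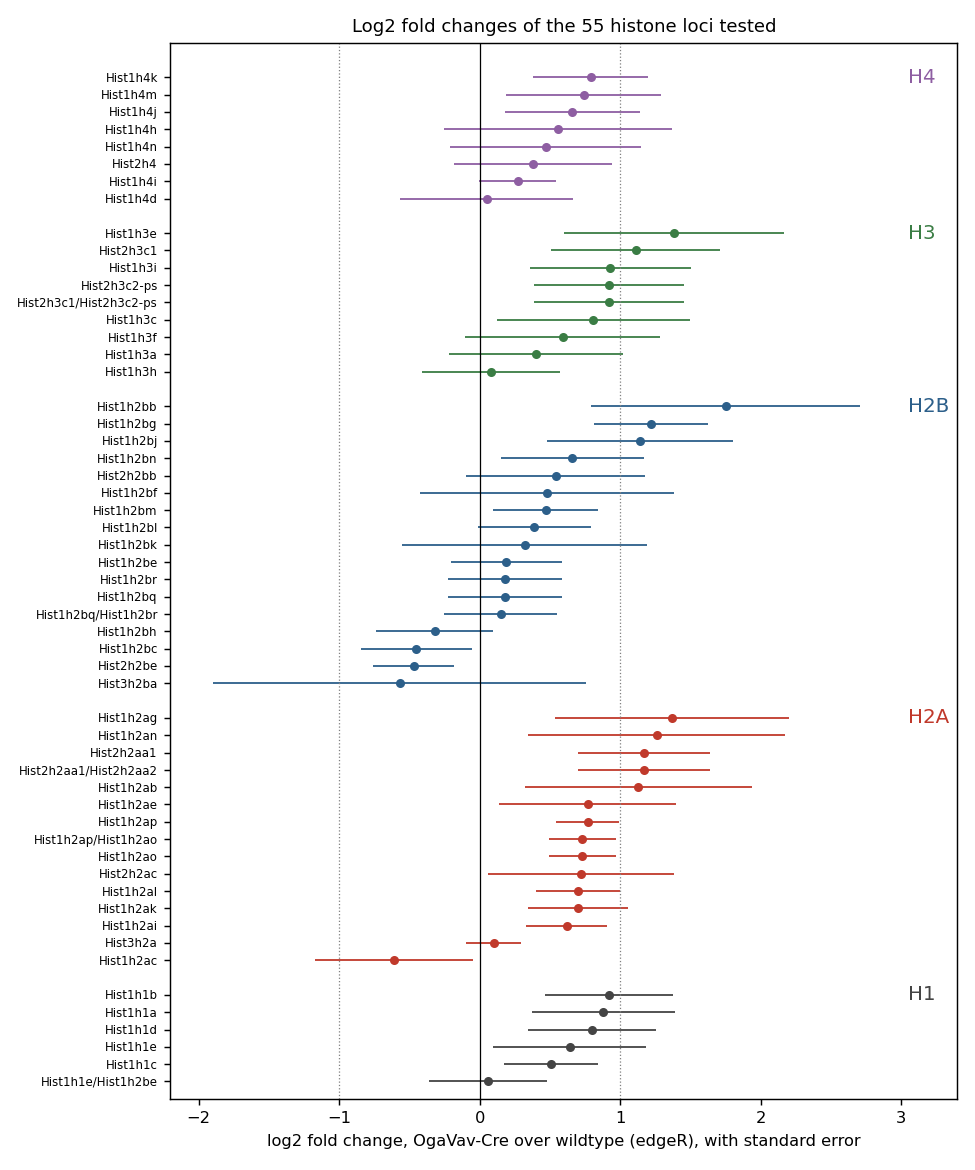
Log2 fold change of OgaVav-Cre over wildtype with its standard error (edgeR, 3 libraries per genotype) for the 55 histone loci tested, grouped and coloured by class. Dotted lines mark the fold change cutoff of 1 in each direction. Most points lie to the right of 0, none passed the adjusted p cutoff, and the 5 to the left are 4 H2B loci and Hist1h2ac.

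H2A is the core histone that pairs with H2B at the surface of the nucleosome. Hist1h2ap, at chr13:21924952-21925344 on the minus strand, gave 389, 455 and 495 reads in OgaVav-Cre against 297, 155 and 222 in wildtype. Scaled to library size this was 17.8 ± 0.453 (SD, n = 3) and 10.4 ± 3.08 (SD, n = 3) CPM, and the groups did not overlap. The log2 fold change was 0.77 ± 0.224 (SE), with an edgeR p of 0.00958 and an adjusted p of 0.412. Hist1h2ao, which covers Hist1h2ap whole, gave 395, 470 and 501 reads in OgaVav-Cre against 320, 159 and 226 in wildtype, with a log2 fold change of 0.73 (edgeR adjusted p = 0.412).

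Hist1h2ai stood at 129, 146 and 129 CPM in OgaVav-Cre and 134, 59.1 and 69.4 in wildtype. The OgaVav-Cre libraries lay close together, and wildtype replicate 1 was among them while the other two were lower. The log2 fold change was 0.62 ± 0.289 (SE), with an edgeR adjusted p of 0.492. Without wildtype replicate 1 it was 1.07. Hist1h2ak was the member with the third highest level at a place of its own. It gave 222, 313 and 276 reads in OgaVav-Cre against 227, 81 and 118 in wildtype (log2 fold change 0.7, edgeR adjusted p = 0.518). Scaled to library size, wildtype replicate 1 at 10.6 CPM again stood among the OgaVav-Cre libraries, at 9.84, 12.4 and 10.1. The locus called Hist1h2aj had a log2 fold change of 0.59 ± 0.282 (SE), with an edgeR adjusted p of 0.496.

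Hist2h2aa1, from the Hist2 cluster on chromosome 3, gave 125, 56 and 145 reads in OgaVav-Cre against 29, 58 and 34 in wildtype. OgaVav-Cre replicate 2 lay within the range of wildtype. The fitted difference was 1.17 ± 0.471 (SE) on the log2 scale, with an edgeR adjusted p of 0.453. The whole locus is covered on the opposite strand by AK016171, which gave 163, 74 and 220 reads in OgaVav-Cre against 45, 94 and 58 in wildtype. The order of the libraries by raw reads was the same in both. How the counting treated strand is not given in the sources used here, and without strand the reads of these loci cannot be told apart. Hist2h2aa2, which lies inside Hist2h2aa1, gave 11, 8 and 29 reads in OgaVav-Cre against 2, 1 and 2 in wildtype.

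Hist1h2al, chosen after its values were seen, gave 232, 167 and 305 reads in OgaVav-Cre against 92, 148 and 126 in wildtype. OgaVav-Cre replicate 2 lay inside the wildtype range once scaled, and the log2 fold change was 0.7 ± 0.3 (SE) with an edgeR adjusted p of 0.47. Among members with few reads, Hist1h2ag gave 17, 16 and 16 reads in OgaVav-Cre against 13, 2 and 1 in wildtype (log2 fold change 1.37, edgeR adjusted p = 0.574). Hist1h2an gave 16, 6 and 39 reads in OgaVav-Cre against 16, 2 and 3 in wildtype (1.26, adjusted p = 0.626 in edgeR). Both rest on few reads in wildtype, and without wildtype replicate 1 the log2 fold changes were 3.12 for Hist1h2ag and 2.72 for Hist1h2an. Without wildtype replicate 3 Hist1h2ag was at 0.85, and without OgaVav-Cre replicate 3 Hist1h2an was at 0.52. Hist3h2a gave 309, 476 and 569 reads in OgaVav-Cre against 388, 286 and 396 in wildtype, or 17.8 ± 3.65 and 16.6 ± 1.68 (SD, n = 3) CPM. Its log2 fold change of 0.1 turned to -0.03 without OgaVav-Cre replicate 3. Hist1h2ac was the H2A member with the lowest fold change. It gave 20, 103 and 91 reads in OgaVav-Cre against 49, 97 and 126 in wildtype, with OgaVav-Cre replicate 1 below all others, and its log2 fold change was -0.61 ± 0.562 (SE) with an edgeR adjusted p of 0.703.

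H2B, the partner of H2A, was the class with the lowest median fold change. Hist1h2bl, its highest member, gave 111, 65 and 152 reads in OgaVav-Cre against 64, 42 and 112 in wildtype, and replicate 2 was the lowest of each genotype (log2 fold change 0.39, edgeR adjusted p = 0.736). Hist1h2bn gave 60, 39 and 105 reads in OgaVav-Cre against 33, 16 and 63 in wildtype, again with replicate 2 the lowest in both (0.66, adjusted p = 0.646 in edgeR). Hist1h2bb had the largest log2 fold change of all members, 1.75 ± 0.955 (SE) with an edgeR adjusted p of 0.539. Its counts were 40, 13 and 14 in OgaVav-Cre against 7, 0 and 11 in wildtype, so that the groups did not overlap, with few reads on the wildtype side. With a library left out its log2 fold change ran from 0.91 (without OgaVav-Cre replicate 1) to 2.42 (without wildtype replicate 3), so that its place as the largest rests on these libraries.

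Of the 5 members with a log2 fold change below 0, 4 were H2B. Hist2h2be gave 130, 168 and 325 reads in OgaVav-Cre against 239, 215 and 269 in wildtype, or 5.76, 6.65 and 11.9 against 11.2, 11.2 and 11.4 CPM. The wildtype libraries were nearly equal, and OgaVav-Cre replicate 3 was level with them while the other two were lower. The log2 fold change was -0.47 ± 0.286 (SE), with an edgeR adjusted p of 0.57. Hist1h2bc gave 120, 98 and 175 reads in OgaVav-Cre against 128, 77 and 266 in wildtype. Its log2 fold change of -0.45 (edgeR adjusted p = 0.691) turned to 0.05 without wildtype replicate 3. Hist1h2bh gave 42, 44 and 76 reads in OgaVav-Cre against 71, 26 and 77 in wildtype (-0.32, adjusted p = 0.798 in edgeR). Hist3h2ba gave 0, 17 and 26 reads in OgaVav-Cre against 41, 0 and 12 in wildtype, with 1 library of each genotype at 0. Its log2 fold change of -0.57 ± 1.33 (SE) turned to 1.05 without wildtype replicate 1 and to 0.01 without OgaVav-Cre replicate 1.

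The symbol Hist1h2bg was listed at 2 places, and its values differed between them. The longer locus, taken by the rule, lies on chromosome 3 (chr3:96070998-96074212, minus strand), within the Hist2 cluster and across Hist2h3b and part of Hist2h2bb on the opposite strand. GENCODE has Hist1h2bg on chromosome 13 alone, and the chromosome 3 locus shared 50-base windows with H3 members, 439 of them with Hist2h3b, and with no H2B member. It is counted under H2B by its symbol only, and without knowledge of strand its reads and those of Hist2h3b cannot be told apart. It gave 67, 36 and 85 reads in OgaVav-Cre against 28, 18 and 23 in wildtype, and the groups did not overlap. On the log2 scale OgaVav-Cre was 1.22 ± 0.406 (SE) higher, with an edgeR p of 0.0181 and an adjusted p of 0.416. The locus in the Hist1 cluster (chr13:23663265-23663883, plus strand) gave 45, 20 and 70 reads in OgaVav-Cre against 35, 22 and 48 in wildtype. Here the log2 fold change was 0.15 ± 0.483 (SE), with an edgeR adjusted p of 0.93.

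H1 binds the linker DNA between nucleosomes. Hist1h1c, the highest of its class, gave 460, 289 and 750 reads in OgaVav-Cre against 251, 220 and 435 in wildtype. Scaled to library size this was 20.4, 11.4 and 27.4 against 11.8, 11.4 and 18.4 CPM, and OgaVav-Cre replicate 2 was at the level of the lowest wildtype library. The log2 fold change was 0.51 ± 0.335 (SE), with an edgeR adjusted p of 0.595. The other H1 loci tested, apart from the joint name Hist1h1e/Hist1h2be at 0.06, had log2 fold changes of 0.64 to 0.92, and none passed the test. Among these, Hist1h1d gave 209, 65 and 195 reads in OgaVav-Cre against 98, 56 and 80 in wildtype. E430020m11rik, which shares 1103 bases with it on the opposite strand, gave 205, 63 and 195 against 95, 54 and 78. Whether these were the same reads was not tested.

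H3 and H4 form the tetramer at the core of the nucleosome. Hist1h3h, the highest H3 member, gave 73, 30 and 83 reads in OgaVav-Cre against 71, 25 and 57 in wildtype. Its log2 fold change of 0.08 ± 0.49 (SE) turned to -0.2 without wildtype replicate 2, -0.14 without OgaVav-Cre replicate 1 and -0.09 without OgaVav-Cre replicate 3. Hist1h3e gave 34, 6 and 28 reads in OgaVav-Cre against 11, 8 and 3 in wildtype, with replicate 2 of OgaVav-Cre inside the wildtype range (log2 fold change 1.38, edgeR adjusted p = 0.55). Hist1h4i gave 165, 137 and 179 reads in OgaVav-Cre against 151, 77 and 115 in wildtype (0.27, adjusted p = 0.733 in edgeR). Hist1h4k gave 110, 58 and 122 reads in OgaVav-Cre against 62, 26 and 58 in wildtype (0.79, adjusted p = 0.525 in edgeR). In these H3 and H4 members replicate 2 of OgaVav-Cre was the lowest of its genotype, and the groups overlapped.

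Summed over the 64 loci counted once, the histone level was 303, 273 and 337 CPM in OgaVav-Cre against 277, 162 and 212 in wildtype. The means were 304 ± 32 and 217 ± 58.0 (SD, n = 3), a ratio of 1.4, and OgaVav-Cre replicate 2 lay just below wildtype replicate 1. The ratio was 1.48 for H2A, 1.45 for H1, 1.51 for H3, 1.44 for H4 and 1.02 for H2B. The H1 sum holds the joint locus Hist1h1e/Hist1h2be in place of Hist1h1e and Hist1h2be. Reads of Hist1h2be that lie in the joint locus are therefore counted under H1 and not under H2B. The spread of the ratio, carried over from the SD of both groups, was 0.403 for the whole sum and 0.453 to 0.888 for the classes. Every one of these ratios differed from 1 by less than its spread. That spread is of single libraries and is wider than the error of a mean of 3, so it does not test the ratios. No test was made on these sums. Without Hist1h2ai, Hist1h2ak and Hist1h2ao the sum was 147, 96.4 and 180 in OgaVav-Cre and 118, 90.3 and 128 in wildtype.

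Variation between libraries of 1 genotype was large and followed 2 patterns. With overlapping loci counted once, replicate 2 was the lowest OgaVav-Cre library in 36 of the 46 members tested and the lowest wildtype library in 35 of 46. Over all loci tested these shares were 32.8% and 32.9%. The median coefficient of variation of the 46 members was 42.6% in OgaVav-Cre and 46.0% in wildtype, beside 17.9% and 18.3% over all loci. Counting alone would give medians of 13.4% and 18.8% for the members and 5.66% and 6.13% for all loci, since the members had fewer reads.

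In the first pattern OgaVav-Cre replicate 2 was low. H1 summed to 40, 19.4 and 48.3 CPM in OgaVav-Cre and 23.9, 19.6 and 30.8 in wildtype, H2B to 36.3, 24.4 and 48.7 and to 37.3, 24.5 and 45.0, H3 to 13.3, 4.91 and 14.2 and to 9.47, 4.56 and 7.36, and H4 to 22.4, 13.1 and 22.5 and to 17.3, 9.23 and 13.7. In all 4 classes replicate 3 was the highest OgaVav-Cre library and replicate 2 the lowest of each genotype. The B cell and precursor markers had the same lowest libraries, with 943, 626 and 1810 CPM in OgaVav-Cre and 1770, 603 and 1460 in wildtype. The erythroid markers stood at 1200, 729 and 2740 in OgaVav-Cre and 1050, 846 and 1090 in wildtype. The LSK markers ran the other way, with 2150, 2460 and 1150 in OgaVav-Cre and 1520, 2690 and 1950 in wildtype. The part of these markers in the histone levels was not tested.

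In the second pattern OgaVav-Cre replicate 2 was as high as the others and wildtype replicate 1 stood with them. H2A summed to 191, 211 and 203 in OgaVav-Cre and 190, 104 and 115 in wildtype, which followed Hist1h2ai, Hist1h2ao and Hist1h2ak (156, 177 and 158 against 160, 71.6 and 83.9). Genes of S phase had the same order of the wildtype libraries, as did the H3 and H4 sums and the B cell and T and NK cell markers, so that this order was not particular to H2A. The 23 genes of the S phase list, among them Pcna, the minichromosome maintenance genes and Top2a, summed to 3410, 3500 and 3530 CPM in OgaVav-Cre and to 4510, 2270 and 2730 in wildtype. Wildtype replicate 1 was the highest and replicate 2 the lowest in both. The paper measured the cell cycle of LSK cells with DAPI, a DNA stain, and reported similar profiles in both genotypes. The part of S phase in the histone levels was not tested.

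**Figure D4:**
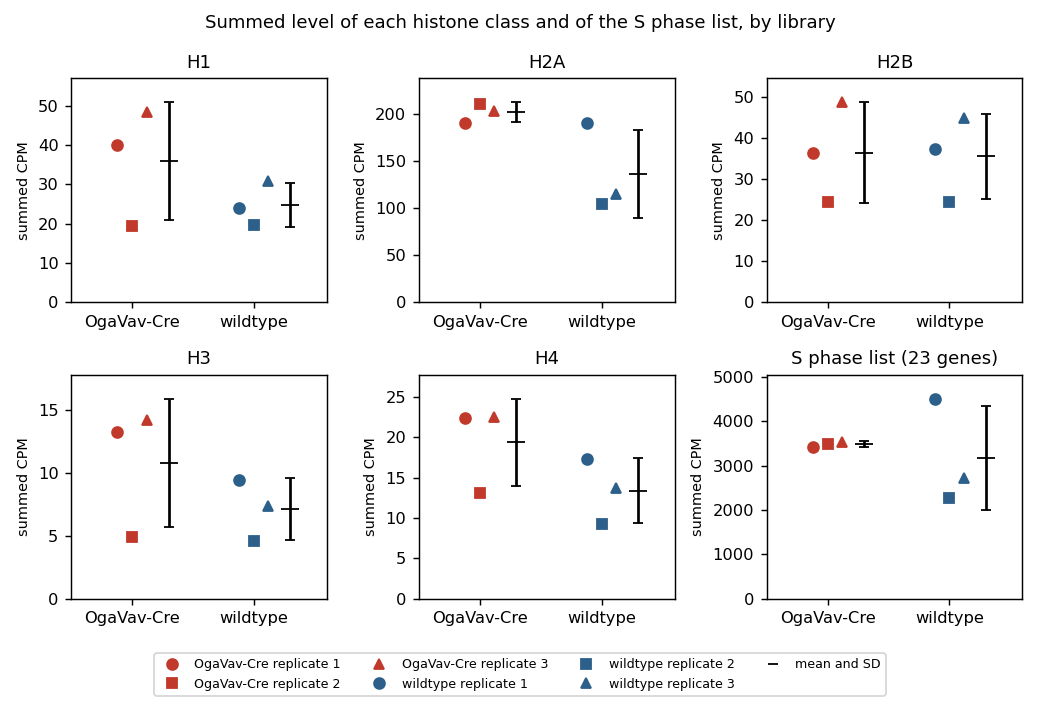
Summed CPM (TMM-scaled) of the 5 histone classes and of the 23 genes of the S phase list, 1 point per library, with the mean and SD (n = 3) in black and each axis starting at 0. OgaVav-Cre replicate 2 is the lowest of its genotype in H1, H2B, H3 and H4 but the highest in H2A, where wildtype replicate 1 stands apart from the other two wildtype libraries as in the S phase list.

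Of the lists of other genes related to histone supply, 0 genes tested passed the cutoffs in edgeR or DESeq2. An unadjusted edgeR p below 0.05 was reached by 1 of 11 histone variants tested, 1 of 26 processing factors and 1 of 23 S phase genes. These were H3f3b, Zfp473 and Tyms. It was reached by 0 of 17 chaperones and 0 of 3 small RNAs. Over all loci tested this share was 10.6%. Histone variants made outside S phase mostly carry polyadenylated mRNAs. Of 14 listed, 11 were tested, with a median log2 fold change of 0.23, and 9 were above 0. H3f3b, a gene for the replacement histone H3.3, gave 14918, 16251 and 17507 reads in OgaVav-Cre against 11152, 8342 and 9835 in wildtype. That is 648 ± 12.1 and 457 ± 57.3 (SD, n = 3) CPM, with no overlap. The log2 fold change of 0.5 ± 0.137 (SE) had an edgeR p of 0.00677 and an adjusted p of 0.411. H3f3a, the other H3.3 gene, had a log2 fold change of -0.21 (edgeR adjusted p = 0.599).

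H2afx, which encodes H2A.X and whose mRNA is known both with the stem-loop and with a poly(A) tail, stood at 171, 163 and 165 CPM in OgaVav-Cre against 207, 90.6 and 98.5 in wildtype. This was the order seen for Hist1h2ai in wildtype, with replicate 1 high (log2 fold change 0.33, edgeR adjusted p = 0.7). H2afz, for H2A.Z, is listed at more than 1 place, and at its GENCODE place on chromosome 3 it stood at 282 ± 24.3 and 223 ± 75.8 (SD, n = 3) CPM, with wildtype replicate 1 the highest library. Another locus on the opposite strand overlaps it there. H1f0, the linker histone of resting cells, stood at 87.4 ± 34.0 and 66.7 ± 1.76 (SD, n = 3). The log2 fold changes of H2afz and H1f0 were 0.34 and 0.39, with adjusted p of 0.606 and 0.624 in edgeR. H1fx and H2afj, for a linker variant and an H2A variant, had 0.66 and 0.15, with adjusted p of 0.543 and 0.599 in edgeR.

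Of the factors that make and break histone mRNA 26 were tested, with a log2 fold change above 0 in 17 and a median of 0.03. Slbp, for the stem-loop binding protein, stood at 103, 88.4 and 111 CPM in OgaVav-Cre against 118, 75.0 and 79.4 in wildtype, and the groups overlapped (log2 fold change 0.15, edgeR adjusted p = 0.795). Npat, for the coactivator of histone transcription, was at 51.7 ± 8.26 and 52.9 ± 5.55 (SD, n = 3), and Casp8ap2, for a factor of histone 3′ end formation, at 71.7 ± 8.4 and 76.6 ± 14.5. Their log2 fold changes were -0.03 and -0.1. Each changed sign when single libraries were left out. Zfp473, for a zinc finger protein of the U7 particle, was lower in OgaVav-Cre in all 3 libraries, with 2.31, 3.72 and 2.74 CPM against 5.15, 3.99 and 4.7. A log2 fold change of -0.66 ± 0.279 (SE) had an edgeR adjusted p of 0.468. Hinfp, for a regulator of H4 transcription, had -0.28, and Sympk, Coil and Rdbp had 0.22, 0.25 and 0.25, with adjusted p of 0.502 to 0.673 in edgeR.

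Histone chaperones carry histones and load them onto DNA. Of 17 chaperones 14 had a log2 fold change above 0, with a median of 0.16, and of 23 S phase genes 20 did, with a median of 0.23. The 5 chaperones with the lowest p, Ssrp1, Dnajc9, Nasp, Chaf1a and Hat1, had 0.22 to 0.38, with adjusted p of 0.489 to 0.582 in edgeR. Tyms, for thymidylate synthase, stood at 52.4, 54.2 and 55.5 CPM in OgaVav-Cre against 51.5, 27.5 and 33.8 in wildtype. OgaVav-Cre was above wildtype throughout, by little over wildtype replicate 1, and the log2 fold change was 0.52 ± 0.221 (SE) with an edgeR adjusted p of 0.465. Cdt1, E2f1 and Mcm7 had 0.4, 0.31 and 0.34 and Cdk2 -0.21, with adjusted p of 0.492 to 0.564 in edgeR. Among the small RNAs 3 were tested, Snora73a, Terc and Snora73b, with log2 fold changes of -0.77, -0.85 and -0.26 and adjusted p of 0.535 to 0.845 in edgeR.

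Many H2A and H2B genes lie head to head and share 1 promoter, so the sequence before them can be set beside the levels of both. In the pairs below capitals mark CCAAT, the octamer ATGCAAAT and TATAAA on either strand, and the marked motifs do not overlap. Hist1h2ac and Hist1h2bc, both with fold changes below 0, are separated by 239 bases and had levels of 1.4 and 8.34.
Hist1h2ac and Hist1h2bc (mm9, chr13:23775829-23776067, plus strand): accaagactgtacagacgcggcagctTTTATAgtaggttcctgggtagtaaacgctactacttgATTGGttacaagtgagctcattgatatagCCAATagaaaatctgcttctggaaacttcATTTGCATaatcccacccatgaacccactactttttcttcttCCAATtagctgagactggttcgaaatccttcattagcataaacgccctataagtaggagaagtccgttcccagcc
Hist2h2ac and Hist2h2be are separated by 237 bases and had levels of 0.809 and 3.64. Their log2 fold changes had opposite signs, 0.72 and -0.47, and neither passed the test.
Hist2h2ac and Hist2h2be (mm9, chr3:96024804-96025040, plus strand): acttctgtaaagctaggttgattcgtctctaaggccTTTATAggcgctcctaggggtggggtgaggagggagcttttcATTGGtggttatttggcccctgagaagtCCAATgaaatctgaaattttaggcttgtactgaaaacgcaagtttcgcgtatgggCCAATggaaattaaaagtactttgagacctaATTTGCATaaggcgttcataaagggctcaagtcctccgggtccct
Each of these 2 stretches held 3 CCAAT, 1 octamer and 1 TATAAA. The octamer was not particular to them. It also lay before Hist1h2bk and Hist3h2a, with log2 fold changes of 0.32 and 0.1, and between Hist1h2ba and Hist1h2aa. The 150 bases before Hist1h2ai, the member with the highest level, held 4 CCAAT and neither of the other motifs.
Hist1h2ai (mm9, chr13:21808131-21808280, plus strand): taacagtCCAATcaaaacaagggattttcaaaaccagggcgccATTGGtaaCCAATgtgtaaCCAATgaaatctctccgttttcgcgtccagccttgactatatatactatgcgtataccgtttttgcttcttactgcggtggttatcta
Hist1h2bl starts 268 bases away from Hist1h2ai on the other strand, and stood seventh in level where Hist1h2ai stood first.

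Over promoters of 300 bases from RefSeq (GRCm38.p6, from 250 before to 50 after the start), matched by gene number for 62 of the 69 members with a single name, CCAAT was found on either strand in 85.5% of histone genes, beside 37.9% of all 27025 promoters. It was in all promoters of H1, H2A, H2B and H3 that matched but in 3 of 12 of H4. The octamer was in 21.0%, beside 1.75% of all, in 7 of 18 promoters of H2A and 6 of 16 of H2B and in none of H1, H3 or H4. TATAAA was in 56.5%, beside 14.2%. A match is of letters only, and none of these motifs was tested against the levels.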

How the data were processed

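RNA-Seq of LSK cells was analyzed in 3 OgaVav-Cre and 3 wildtype libraries, grouped by their labels. Per the labels, cells came from 3 female mice of each genotype. The authors selected poly(A) RNA, sequenced single-end reads of 50 bases, mapped them on mm9 and, with Genomatix, counted reads for each locus, and the submitters' processing notes name CASAVA 1.8.2. Aligner settings, strand and the treatment of reads with several matches are not given in the sources used here. The deposited table holds counts, raw reads per locus, which were used for every test. The authors also deposited RPKM, scaled for depth and locus length, used here only to check the order of levels. Its columns with the authors' log2 fold changes and p-values were not used, nor were 6 per-sample columns of normalized expression. Every locus has a name.

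The count test was edgeR 4.0.16 under R 4.3.3 (TMM, filterByExpr by genotype, glmQLFit and glmQLFTest, Benjamini-Hochberg adjustment over all loci tested), after a check on simulated data. The common biological coefficient of variation was 0.308. Levels are CPM with TMM-scaled library sizes, divided by locus length in kilobases where members are compared. Floors of 3 reads cover counting error only. Sums took, of members that overlap on 1 strand, the one with the most reads. Sequences were read from NCBIM37 (mm9), and 50-base windows were counted over the whole genome on both strands. Python 3.11.15 (pandas 2.3.3, numpy 2.4.6, matplotlib 3.10.9) served for the tables and plots.

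The members, the gene lists and the tests were chosen with earlier results of these data known. Named with values were the 15 members with the highest level, the highest of each class, the 5 with the largest fold change in each direction, those with an unadjusted p below 0.05, Mgea5, the 5 genes of each related list with the lowest p, and Slbp, Npat, Casp8ap2, H2afx, H2afz, H3f3a, H3f3b and H1f0. Other members and overlapping loci were named after their values were seen. A list gene with several loci was taken where GENCODE vM1 has it, a choice made after its values were seen that moved H2afz and H2afy2 from their longest locus. The alternatives were RLE scaling, leaving out the filter on low counts, a stricter filter of 10 reads or more per library, DESeq2 1.42.0, limma-voom (limma 3.58.1), the replicate number as a block, and each library left out. For sums, plain totals, all loci of a repeated symbol and the sum without its highest member were tried.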

Additional observations from a re-analysis of the deposited data

How the results depend on the processing

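No histone gene was called by edgeR under RLE scaling, without a filter, with at least 10 reads in every library, with the replicate number as a block or with any library left out (0 to 0 calls), nor by DESeq2 or limma-voom. Over all loci edgeR called 7, against 21 without a filter, 4 with at least 10 reads in every library, 117 with DESeq2 and 3 to 9 with a library left out. Leaving out wildtype replicate 1 or 3 gave 4, and OgaVav-Cre replicate 1 or 2 gave 3. The replicate numbers were not treated as pairs in the main fit. Correlations of deviations between genotypes were -0.0814, 0.26 and 0.316 for the like numbers 1, 2 and 3. For unlike numbers they ran from -0.381 to 0.206. With 3 libraries per genotype these values cannot settle whether libraries of a like number belong together. Under the replicate block the log2 fold change of Hist3h2ba, -0.57, turned to 0.01, and no other named gene changed sign.

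Of 632 alternative values of 53 named genes, 619 kept their direction and their side of the cutoffs and 13 changed sign, 12 of them with a library left out. With a library left out log2 fold changes ranged from -1.23 to 1.05 for Hist3h2ba, -0.73 to 0.05 for Hist1h2bc, -0.2 to 0.42 for Hist1h3h, -0.03 to 0.26 for Hist3h2a, -0.21 to 0.06 for Casp8ap2, -0.16 to 0.06 for Npat and -0.51 to 0.11 for Snora73b. The ratio of summed levels, 1.4, ranged from 1.24 to 1.63 with a library left out, and was 1.43 over all 74 listed loci and 1.43 with the locus of Hist1h2aj, both chosen after seeing the data. The ratio of H2B ranged from 0.852 to 1.19. Depth limits many members: 37 of 74 had fewer than 10 reads in at least 1 library. With the longest locus of a repeated symbol, an alternative added after seeing the data, H2afz had 0.32 in place of 0.34, and the histone variants a median of 0.17 with 8 above 0 in place of 0.23 with 9.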
